A study of Mus musculus with 6 samples.

Results

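Notch signalling in the embryonic mouse lens was followed through 10 genes, which are the receptors Notch1, Notch2 and Notch3, the ligands Jag1, Jag2 and Dll1, the receptor-modifying enzyme Lfng, the DNA-binding partner Rbpj, and the target genes Hes1 and Hey1. They were taken by symbol, a rule that uses no measured value, and all 10 had a row among the 41102 features analysed. RNA sequencing at E13.5, in mid-gestation, compared 3 libraries of lenses with a conditional knockout of Prox1, a homeodomain transcription factor that lens fibre cells need to elongate, with 3 libraries of wild type lenses. The knockout embryos had the genotype Prox1 f/f MLR10Cre+, the controls were wild type, the labels give the strain C57Bl/6 for both groups, and the design text adds the mark <har> for the controls. Each library came from 30 pooled lenses and is labelled as a biological replicate. The MLR10Cre transgene produces Cre recombinase in lens cells under a modified alpha A-crystallin promoter. No library of floxed lenses without Cre, or of lenses with Cre alone, was analysed here, so the loss of Prox1 and the presence of Cre cannot be told apart. Whether lenses of the same litter entered more than 1 pool is not stated, so a p-value covers only the spread among the pools sampled.

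Notch signalling passes between touching cells. A Jagged or Delta-like ligand on the sending cell binds a Notch receptor on its neighbour, ADAM proteases and then gamma-secretase cut the receptor, and the freed intracellular part enters the nucleus, where it joins RBPJ and a Mastermind protein and switches on genes such as those for the HES and HEY repressors. In the mouse lens, Jag1 and Rbpj are known to keep epithelial cells in the cell cycle and to help time their entry into fibre differentiation, with Jag1 made mainly by the fibre cells and the receptors mainly by the epithelium.

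Promoter windows are shown for Lfng and Rbpj. Among the 8 members with an entry in the RefSeq promoter table (assembly GRCm38.p6), only theirs held the core site that RBPJ binds. The targets Hes1 and Hey1 had no entry, so their promoters were not searched. Each window runs from 250 bases before to 50 bases after the start of the transcript, 5′ to 3′ on the strand of the gene, and capitals mark the core TGGGAA, which reads TTCCCA where it lies on the opposite strand.
Lfng, chr5:140607091-140607390, + strand: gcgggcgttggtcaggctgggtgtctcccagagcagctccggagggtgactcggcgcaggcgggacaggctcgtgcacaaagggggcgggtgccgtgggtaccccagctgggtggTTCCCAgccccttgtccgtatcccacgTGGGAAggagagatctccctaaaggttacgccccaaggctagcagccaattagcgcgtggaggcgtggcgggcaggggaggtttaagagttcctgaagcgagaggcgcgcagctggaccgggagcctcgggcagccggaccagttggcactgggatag
Rbpj, chr5:53590096-53590395, + strand: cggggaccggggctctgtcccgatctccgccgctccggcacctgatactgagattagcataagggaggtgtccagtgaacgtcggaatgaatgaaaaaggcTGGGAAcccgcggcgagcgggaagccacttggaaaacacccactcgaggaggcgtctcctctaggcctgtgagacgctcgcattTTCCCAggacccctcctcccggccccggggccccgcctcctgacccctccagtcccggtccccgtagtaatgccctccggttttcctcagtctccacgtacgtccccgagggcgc

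In the Lfng window the core began at -135 on the opposite strand and at -108 on the strand of the gene, counted from the start of the transcript. The forward copy was part of the longer site GTGGGAA, beginning at -109, and overlapped an E box, CACGTG, a site bound by HEY-type repressors, beginning at -112. The Rbpj window held the core at -149 on the strand of the gene and at -65 on the opposite strand. This window belongs to a start inside the annotated gene, which begins at chr5:53466152. A window from another Rbpj start overlaps the one printed and holds the same opposite-strand copy. On both strands, 25.6% of 32851 mouse promoter windows of the same length held the core at least once and 3.79% held it at least 2 times. The longer site was in 6.38% of them and the E box in 7.15%. The N box CACNAG, which HES repressors bind, was in 42.5% of all windows, and it was found for Notch1, Notch2, Notch3, Lfng and another start of Dll1. A match of letters describes the window and does not show that a factor binds there.

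The libraries differed in depth, from 9082219 to 28391662 counts in the knockout and from 20731491 to 21061582 in the wild type, and Pearson's r of log2 values between libraries of the same group was 0.977 to 0.990. Prox1 itself stood at 651, 728 and 707 CPM for knockout libraries 1 to 3 and at 922, 1215 and 1246 CPM for wild type libraries 1 to 3. CPM here are counts scaled to a common depth by TMM, a factor per library that sets aside the genes that differ most. All knockout libraries lay below all wild type libraries for Prox1, which fell by 0.70 on the log2 scale, with an SE of 0.141 and an edgeR adjusted p of 0.0074, and whether the remaining reads came from outside the deleted part of the gene was not tested. The summed level of 8 lens genes, led by the alpha crystallin Cryaa, was 16793 to 18483 CPM in knockout libraries and 70175, 119701 and 127026 CPM for wild type libraries 1 to 3, and 6 of the 8 fell while Pax6 rose. For these genes wild type library 1 stood nearer to the knockout than the other wild type libraries did, and without it 8 of the 10 Notch genes passed the threshold used below. Of 5 genes of the lens epithelium 3 rose (Pdgfra, Cdh1 and Gja1) and 1 fell. The gene that fell was Foxe3, by 0.62 on the log2 scale (edgeR adjusted p = 0.0271). The sums were 1515 to 1676 CPM in knockout libraries and 869 to 1006 CPM in wild type libraries. Of these sums Gja1 alone gave 696 to 758 CPM and 227 to 362 CPM. Transcripts of neighbouring tissues were present in every library, and their sums stand beside the Notch genes below. Neuron markers gave 113 to 143 CPM in knockout libraries and 94.5 to 147 CPM in wild type libraries, and macrophage markers 33.7 to 46.0 and 18.0 to 39.4 CPM, with none of 7 and none of 5 past the threshold.

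All 10 Notch genes passed the filter on low counts. In the knockout, Notch1, Notch2, Jag2 and Hes1 rose, Jag1, Lfng and Hey1 fell, and Notch3, Dll1 and Rbpj did not pass an edgeR adjusted p of 0.05 over all 14271 genes tested. The most abundant ligand, Jag1, fell while its relative Jag2 rose, and the targets Hes1 and Hey1 went in opposite directions. The 7 called genes of 10 stand beside 32.6% of all tested genes called, the 4 rising beside 15.9% rising and the 3 falling beside 16.8% falling. The median log2 fold change of the 10 genes was 0.56, against 0.04 over all tested genes, and all 10 had an unadjusted p below 0.05 in edgeR, as did 6464 of the 14271. For 5 members every knockout library was above every wild type library, beside 24.4% of all genes, and for 3 members every knockout library was below, beside 25.7% of all genes. Across all genes 2263 rose and 2396 fell, but with libraries scaled by their totals alone, as in the deposited CPM, the median of all genes moved up by 0.35, 5423 rose and 945 fell. Under that scaling 7 of the 10 Notch genes rose and 2 fell, and no member changed its direction. The changes below are relative to the TMM scaling.

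**Figure D1:**
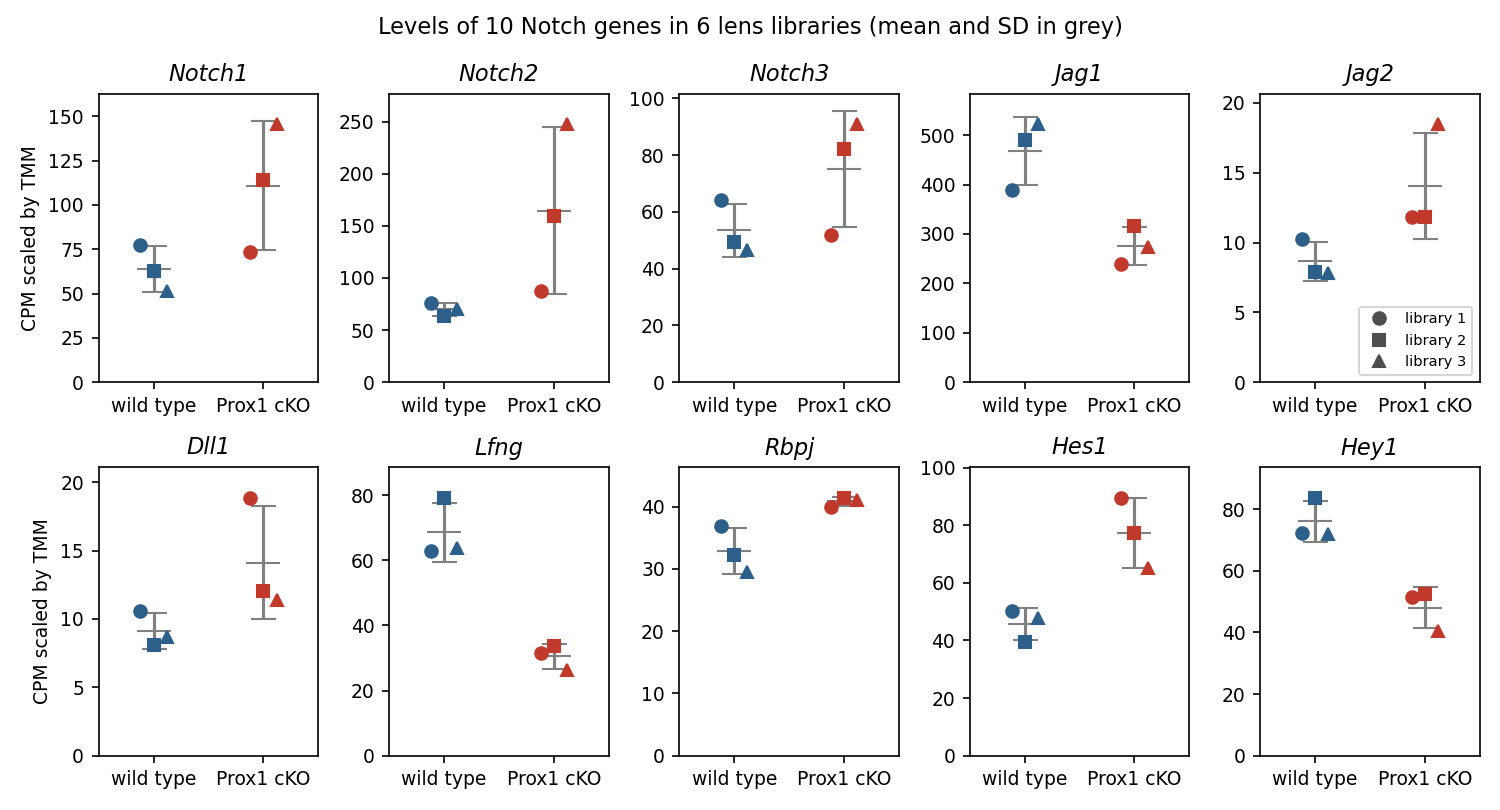
Level of each of the 10 Notch genes in CPM scaled by TMM (vertical axis, linear from 0, a different range in each panel) in the 3 wild type and 3 Prox1 cKO libraries. Each symbol is a library and grey bars give the mean and SD; Jag1, Lfng and Hey1 are lower in every knockout library, and only Notch1 and Notch3 overlap between the groups.

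Jag1, the membrane ligand at chr2:137081456-137116644 (GRCm38, as for all gene positions here), was the most abundant member, also per transcript length. Its level was 239, 316 and 273 CPM for knockout libraries 1 to 3 and 389, 491 and 522 CPM for wild type libraries 1 to 3. All 3 knockout libraries lay below all 3 wild type libraries, and wild type library 1 was the lowest of its group. The mean was 276 ± 38.4 CPM in knockout libraries against 467 ± 69.2 CPM in wild type libraries (SD, n = 3 each), a fall by 0.76 on the log2 scale, with an SE of 0.148 and an edgeR adjusted p of 0.00623, or 1.69-fold lower. Jag1 kept its call with any single library left out, with a log2 fold change between -0.92 and -0.67. In lens pools, fewer cells of a type and less RNA per cell cannot be told apart, for this gene as for the others.

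Jag2, the other Jagged ligand, at chr12:112907819-112929776, had a far lower level. It gave 11.8, 11.9 and 18.5 CPM for knockout libraries 1 to 3 and 10.3, 7.90 and 7.83 CPM for wild type libraries 1 to 3. The groups did not overlap, although wild type library 1 came close to knockout libraries 1 and 2, and knockout library 3 was the highest. The log2 fold change was 0.68 (SE 0.217; edgeR adjusted p = 0.0419). That call was lost without knockout library 2 (adjusted p = 0.0511), knockout library 3 (0.105), wild type library 2 (0.154) or wild type library 3 (0.142) in edgeR, and by limma-voom (0.0537). With the library number as a block the adjusted p was 0.0708.

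Dll1, the Delta-like ligand at chr17:15367354-15376872, gave 18.8, 12.02 and 11.4 CPM for knockout libraries 1 to 3. For wild type libraries 1 to 3 it gave 10.6, 8.07 and 8.69 CPM. Every knockout library was above every wild type library, with knockout library 1 standing apart from the other knockout libraries. The log2 fold change of 0.64 (SE 0.222) had an edgeR adjusted p of 0.0541, and it passed the threshold without knockout library 3 (0.0388). Other settings moved it across as well, with an adjusted p of 0.0307 in DESeq2, 0.0436 in limma-voom and 0.0387 in edgeR with no filter on low counts. The exons of Dll1 share 20.5% of their bases with the opposite-strand transcript A930024N18Rik, and the library kit does not mark strand, so reads of that stretch cannot be assigned to either gene.

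Dll1, like Hes1 below, is also a gene of the neural retina, whose progenitors use Notch. The summed level of 9 retinal markers, Fgf15 and Six6 among them, was 945, 580 and 609 CPM for knockout libraries 1 to 3 and 525, 386 and 403 CPM for wild type libraries 1 to 3. None of the 9 was at 0, and 3 of the 9, with Fgf15 and Six6 among them, rose while none fell. Knockout library 1 was the highest of its group for the sum of these markers, for Dll1 and for Hes1. Knockout library 3 was above knockout library 2 for the sum, but below it for Dll1 and Hes1. In the wild type the order was the same for the sum, Dll1 and Hes1, with library 1 highest and library 2 lowest. The part of retinal RNA in those levels was not tested.

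Notch1, the receptor at chr2:26457903-26516663, gave 73.2, 114 and 145 CPM for knockout libraries 1 to 3 and 77.2, 62.5 and 51.3 CPM for wild type libraries 1 to 3. The groups overlapped, because knockout library 1 lay below wild type library 1. The means were 111 ± 36.2 CPM and 63.7 ± 13.0 CPM (SD, n = 3 each), and the log2 fold change was 0.79 (SE 0.242; edgeR adjusted p = 0.0364). The call was lost in edgeR without knockout library 2 (adjusted p = 0.0831), knockout library 3 (0.1001), wild type library 2 (0.122) or wild type library 3 (0.133). With the library number as a block the adjusted p was 0.0899.

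Notch2, the receptor at chr3:98013527-98150361, had the largest rise and the widest spread of the members. Knockout libraries 1, 2 and 3 gave 87.1, 160 and 247 CPM and wild type libraries 1, 2 and 3 gave 76.1, 63.6 and 70.1 CPM. The groups did not overlap, but the knockout libraries spanned a 2.84-fold range, with a coefficient of variation of 48.7%, and the lowest of them lay close above the wild type. The mean was 165 ± 80.3 CPM in knockout libraries against 69.9 ± 6.22 CPM in wild type libraries (SD, n = 3 each), a log2 fold change of 1.23 (SE 0.313; edgeR adjusted p = 0.0190). Leaving out knockout library 3 gave a log2 fold change of 0.82 and leaving out knockout library 1 gave 1.54, and the call was lost without wild type library 2 (adjusted p = 0.0845) or wild type library 3 (0.0645).

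Notch3, the receptor best known from the mural cells that wrap blood vessels, lies at chr17:32120820-32166852. It gave 52.0, 82.2 and 90.8 CPM for knockout libraries 1 to 3 and 64.1, 49.5 and 46.7 CPM for wild type libraries 1 to 3. Knockout library 1 lay within the wild type range, so the groups overlapped. The log2 fold change of 0.48 (SE 0.209) did not pass the threshold (edgeR adjusted p = 0.108), except without knockout library 1, when it was 0.69 (adjusted p = 0.0130), and under scaling by library totals (0.0120).

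All 3 receptors were lowest in knockout library 1 and highest in knockout library 3 among the knockout libraries, and all 3 have long transcripts, of 14.2, 10.5 and 8.04 kb for Notch1, Notch2 and Notch3 as implied by the deposited RPKM. Over all tested genes the knockout libraries differed by transcript length in the same direction. Between knockout library 3 and knockout library 1 the median log2 difference was -0.23 for 2590 genes below 2 kb and 0.35 for 1707 genes of 8 kb or more. The comparison of the groups differed by length as well. Below 2 kb the median log2 fold change was -0.08, and 9.96% of genes rose and 19.6% fell. At 8 kb or more, where all 3 receptors lie, it was 0.13, and 20.9% rose and 12.7% fell. Between knockout libraries 3 and 1 the receptors differed by 0.99 for Notch1, 1.50 for Notch2 and 0.80 for Notch3 on the log2 scale. These values exceed the median of 0.35 for genes of 8 kb or more, but a median does not give the spread of single genes. Hes1, Hey1 and Lfng, at 2.04 to 2.28 kb by the same measure, differed by -0.46, -0.35 and -0.26. The part of length in the changes of the receptors was not tested. With a smooth trend on length removed from each library, an alternative chosen after seeing the data, the log2 fold change was 0.58 for Notch1 (edgeR adjusted p = 0.0207), 1.05 for Notch2 (0.0120) and 0.37 for Notch3 (0.118), and the same 7 of 10 members were called. Besides length, the exons of Notch1, Notch2 and Notch3 share 9.76%, 5.02% and 6.03% of their bases with other annotated transcripts, and reads there cannot be assigned to either.

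Sums of markers of blood vessels and of the tissue around the eye were set beside the receptors. The sum of 8 endothelial markers was 419, 542 and 543 CPM for knockout libraries 1 to 3 and 477, 353 and 261 CPM for wild type libraries 1 to 3, with 1 of 8 rising (Cldn5) and none falling. The sum of 5 mural cell markers was 152, 191 and 246 CPM in knockout libraries and 134, 121 and 95.6 CPM in wild type libraries, with 2 of 5 rising (Rgs5 and Abcc9). The endothelial and mural sums had the same order of libraries within both groups. Notch1 and Notch3 both followed that order, so neither receptor was matched to only 1 of these sums. The sum of 8 markers of the periocular mesenchyme was 1107, 748 and 3422 CPM in knockout libraries and 595, 290 and 540 CPM in wild type libraries, with Foxc2 at 0 in all libraries and 3 of the 7 tested rising. The sum of 5 pigment cell markers was 340, 244 and 690 CPM in knockout libraries and 160, 51.1 and 132 CPM in wild type libraries, and all 5 rose. These last sums were lowest in library 2 of each group, unlike Notch1 and Notch3. Knockout library 3 was the highest for both of these sums, as it was among the knockout libraries for Notch1, Notch2, Notch3 and Jag2. The part of these tissues in the levels of the receptors and of Jag2 was not tested.

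**Figure D2:**
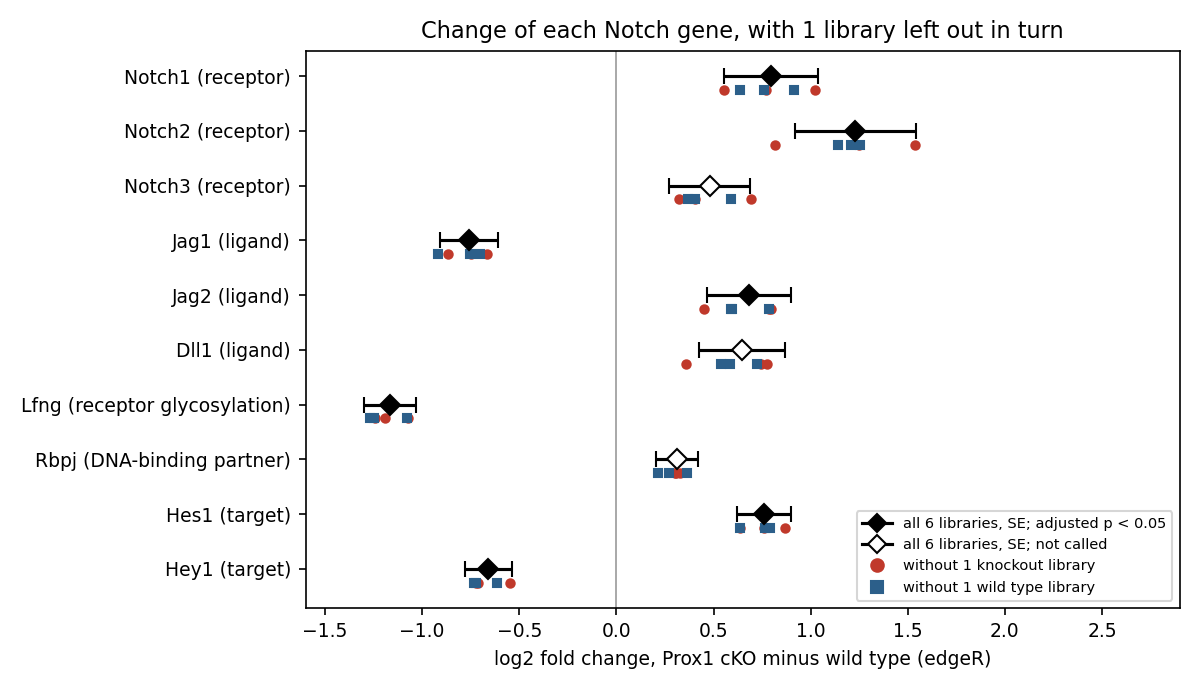
Log2 fold change, Prox1 cKO minus wild type, of each Notch gene in edgeR with all 6 libraries (diamonds with SE, filled where the adjusted p is below 0.05) and with 1 library left out in turn (circles for knockout, squares for wild type libraries). Every value keeps the sign of its diamond, and Notch2 spans 0.82 to 1.54.

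Lfng encodes lunatic fringe, a Golgi enzyme that adds a sugar to Notch and so alters its response to Delta-like and Jagged ligands, and it lies at chr5:140607320-140615545, where the promoter window printed above covers its start. It had the largest fall of the members. Its level was 31.5, 33.6 and 26.2 CPM for knockout libraries 1 to 3 and 62.9, 79.1 and 63.6 CPM for wild type libraries 1 to 3. The highest knockout library was far below the lowest wild type library. The means were 30.5 ± 3.82 CPM and 68.6 ± 9.17 CPM (SD, n = 3 each), a fall by 1.17 on the log2 scale, with an SE of 0.133 and an edgeR adjusted p of 0.000539, or 2.25-fold lower. It kept its call with any library left out, with an adjusted p of at most 0.00278.

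Rbpj, the transcription factor through which all Notch receptors act, lies at chr5:53466152-53657362. It gave 40.0, 41.4 and 41.2 CPM for knockout libraries 1 to 3 and 36.9, 32.2 and 29.5 CPM for wild type libraries 1 to 3. The groups did not overlap, and the knockout libraries agreed more closely than for any other member, with a coefficient of variation of 1.82%. The log2 fold change was 0.31 (SE 0.108), the smallest of the 10, and its edgeR adjusted p of 0.0555 fell below the threshold without wild type library 1 (0.0294), with a filter of 1 CPM in 3 libraries (0.0484) and under scaling by upper quartile (0.0367) or by library totals (0.00903). Of all 51-base windows in its exons, the length of a read, 9.66% also occur in the pseudogene Rbpj-ps3, which had no count in any library.

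Hes1, a repressor of the HES family and the target most often read as a sign of Notch activity, lies at chr16:30064384-30067796. It gave 89.5, 77.3 and 65.2 CPM for knockout libraries 1 to 3 and 50.1, 39.6 and 47.7 CPM for wild type libraries 1 to 3. All knockout libraries lay above all wild type libraries. The means were 77.3 ± 12.2 CPM and 45.8 ± 5.52 CPM (SD, n = 3 each), a log2 fold change of 0.76 (SE 0.139; edgeR adjusted p = 0.00484), or 1.69-fold higher. The call held with any library left out. Without knockout library 1, the highest for the retinal markers, the log2 fold change was 0.64 (edgeR adjusted p = 0.0126). The retinal sums of knockout libraries 2 and 3, 580 and 609 CPM, also exceeded the 386 to 525 CPM of wild type libraries. That fit therefore keeps a retinal difference between the groups, and the part of retinal RNA in Hes1 was not tested.

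Hey1, a repressor of the related HEY family, lies at chr3:8663359-8667256. It gave 51.4, 52.4 and 40.3 CPM for knockout libraries 1 to 3 and 72.4, 83.7 and 72.0 CPM for wild type libraries 1 to 3. All knockout libraries lay below all wild type libraries, the reverse of Hes1. The means were 48.0 ± 6.68 CPM and 76.0 ± 6.61 CPM (SD, n = 3 each), a fall by 0.66 on the log2 scale, with an SE of 0.123 and an edgeR adjusted p of 0.00517, or 1.58-fold lower. The call held with any library left out but not under scaling by library totals, where the log2 fold change was -0.30 (adjusted p = 0.121).

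Levels of different genes were set side by side per transcript length, as the deposited RPKM, which are scaled by library totals. In the wild type Jag1 led with 70.5 ± 4.52 RPKM (SD, n = 3, as for all RPKM means here), and its libraries did not overlap those of the next gene. Hey1 (30.5 ± 2.82 RPKM), Lfng (26.5 ± 3.02 RPKM) and Hes1 (20.0 ± 3.94 RPKM) followed, each overlapping its neighbour in that order. A gap with no overlap separated Hes1 from Notch3 (5.95 ± 1.64 RPKM), which overlapped Notch2 (5.93 ± 1.06 RPKM), and the order went on through Rbpj (5.04 ± 1.05 RPKM) and Notch1 (4.01 ± 1.19 RPKM) with no neighbours apart. Dll1 (1.93 ± 0.464 RPKM) and Jag2 (1.92 ± 0.501 RPKM) came last, apart from Notch1 but not from each other. The wild type lens RNA thus held a single abundant Notch ligand. The ranges of the 3 receptors overlapped, but within each of the 3 wild type libraries Notch1 was below both Notch2 and Notch3.

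In the knockout the order was different in its upper part. Jag1 (53.3 ± 5.49 RPKM) still had the highest mean, but the libraries of Hes1 (43.1 ± 8.94 RPKM) overlapped it. Hey1 (24.7 ± 4.17 RPKM), Notch2 (17.4 ± 7.91 RPKM) and Lfng (15.1 ± 2.21 RPKM) came next without a gap between neighbours. Notch3 (10.4 ± 2.39 RPKM), Notch1 (8.71 ± 2.50 RPKM) and Rbpj (7.93 ± 0.276 RPKM) had lower means and did not overlap Lfng. The libraries of Notch2, from 9.93 to 25.7 RPKM, did overlap those of Notch3 and Notch1. Jag2 (3.89 ± 0.943 RPKM) and Dll1 (3.81 ± 1.34 RPKM) again came last, below Rbpj with no overlap. On this scale Hes1 lay below Hey1 in the wild type and above it in the knockout, with no overlap between them in either group.

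This order rests on the length behind each deposited RPKM, which for some members is shorter than all annotated exons of the gene together. That length was 2.20 kb for Hey1, 5.82 kb for Rbpj and 4.05 kb for Jag2, against 3.27, 12.75 and 6.96 kb of exons in GENCODE. With the deposited CPM divided by exon length, an alternative chosen after seeing the data, the wild type level was 20.6 ± 1.902 per kb for Hey1 and 20.0 ± 3.94 per kb for Hes1 (SD, n = 3 each), and their libraries overlapped. In the knockout Hes1 (43.1 ± 8.94 per kb) stayed above Hey1 (16.7 ± 2.81 per kb) with no overlap. Rbpj then came below all receptors, with no overlap with Notch1 in either group, and Jag2 came last on its own. Jag1 was still the highest in both groups.

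**Figure D3:**
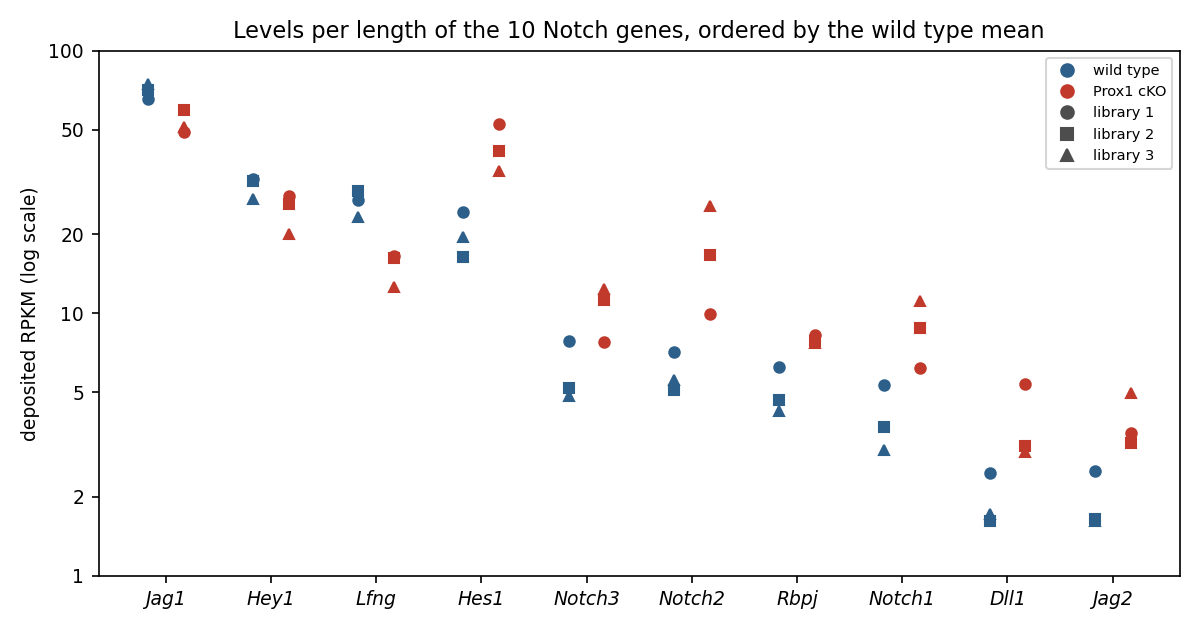
Deposited RPKM of the 10 Notch genes (vertical axis, log scale) in each wild type library (blue) and each Prox1 cKO library (red), ordered from left to right by the wild type mean. Jag1 is highest and Dll1 and Jag2 are lowest in both groups, while Hes1 lies below Hey1 in the wild type, a gap that exon length in GENCODE closes, and above it in the knockout.

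Ratios of raw counts of a pair of genes within a library do not depend on how libraries are scaled. The trend on transcript length described above does not cancel where the pair differs in length, as for Jag1 or Lfng to Notch1. That trend was not removed from the ratios. With 3 libraries against 3, the exact two-sided permutation test over 20 splits cannot give a p below 0.1, so none of the 7 ratios compared could pass 0.05. The ratio of Jag1 to Notch1 counts was 3.27, 2.77 and 1.88 for knockout libraries 1 to 3 and 5.05, 7.85 and 10.2 for wild type libraries 1 to 3. The groups did not overlap, and the ratio was 2.87-fold lower in the knockout (exact permutation p = 0.1, adjusted 0.117 over the 7 ratios).

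Jag1 was also set against Notch2 and against Jag2. The ratio of Jag1 to Notch2 was 2.75, 1.98 and 1.103 in knockout and 5.12, 7.72 and 7.45 in wild type libraries, 3.66-fold lower. The ratio of the Jagged ligands, Jag1 to Jag2, was 20.2, 26.7 and 14.8 in knockout and 37.9, 62.1 and 66.6 in wild type libraries, 2.70-fold lower. Neither ratio overlapped between the groups, and each had the smallest exact permutation p of 0.1 (adjusted 0.117).

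Among the receptors, the ratio of Notch2 to Notch3 was 1.67, 1.94 and 2.73 in knockout and 1.19, 1.28 and 1.50 in wild type libraries, 1.57-fold higher without overlap (exact permutation p = 0.1, adjusted 0.117). The ratio of Notch1 to Notch2 was 0.840, 0.715 and 0.588 in knockout and 1.01, 0.983 and 0.732 in wild type libraries. These overlapped, and the exact permutation p was 0.2.

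The ratio of the targets, Hes1 to Hey1, was 1.74, 1.48 and 1.62 for knockout libraries 1 to 3 and 0.692, 0.473 and 0.662 for wild type libraries 1 to 3. It was above 1 in every knockout library and below 1 in every wild type library, a 2.68-fold difference (exact permutation p = 0.1, adjusted 0.117). The ratio is of counts, not of levels per length. The ratio of Lfng to Notch1, the modifying enzyme to its substrate, was 0.430, 0.295 and 0.180 in knockout and 0.815, 1.27 and 1.24 in wild type libraries. It was 3.83-fold lower without overlap (exact permutation p = 0.1, adjusted 0.117).

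**Figure D4:**
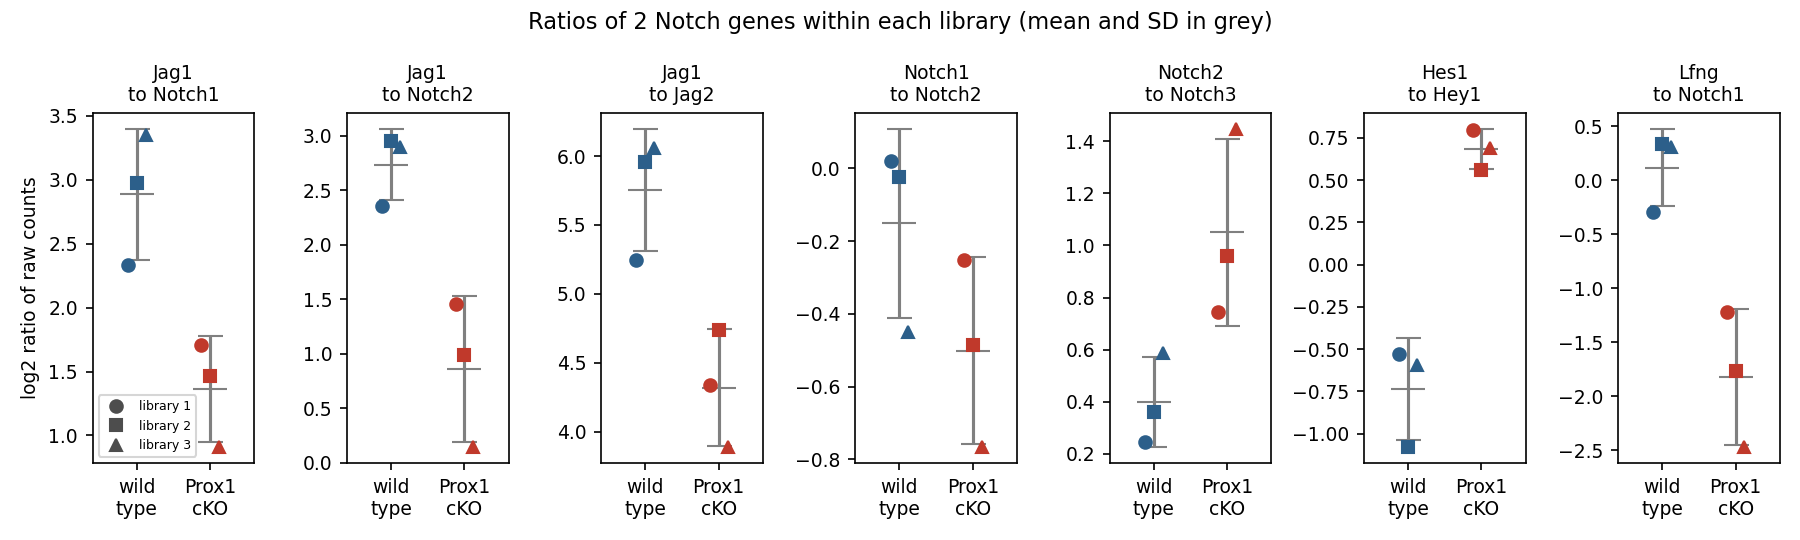
Log2 ratio of raw counts of a pair of Notch genes within each library (vertical axis, a different range in each panel), for 3 wild type and 3 Prox1 cKO libraries, with the mean and SD in grey. In 6 of the 7 panels the groups do not overlap, and Hes1 to Hey1 is above 0 in every knockout library and below 0 in every wild type library.

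The genes whose pattern over the 6 libraries was most like that of Jag1, among 9490 tested genes with a mean of at least 10 CPM, were Fem1a, Sall1 and Pnpla7. Their root mean square differences from Jag1 in log2 CPM, each gene centred on its own mean, were 0.0470, 0.0609 and 0.0649. Fem1a gave 49.3, 61.3 and 56.7 CPM for knockout libraries 1 to 3 and 82.5, 97.3 and 102 CPM for wild type libraries 1 to 3, which repeats the low first library of each group seen for Jag1. Most like Notch1 were Vash1, Shank3 and Nynrin, with differences of 0.0722, 0.0753 and 0.0857. Vash1 gave 32.4, 51.9 and 62.1 CPM in knockout libraries and 32.9, 26.6 and 19.8 CPM in wild type libraries, the same order of libraries as Notch1. Both genes were picked for likeness over these same 6 libraries, so the shared patterns follow from the choice.

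Around these members, 49 other genes of the pathway were followed, of which 45 had enough counts to be tested; Rbpjl, Hes2, Hes3 and Hes7 did not. In edgeR 9 rose, 7 fell and 29 did not pass the threshold. The 16 called are 35.6% of the 45, close to the 32.6% of all tested genes, and the median log2 fold change was 0.32 against 0.04 over all genes. At an unadjusted p below 0.05 there were 22 of the 45, beside 6464 of all 14271. The groups did not overlap for 12 of the 45 with the knockout higher, beside 24.4% of all genes, and for 10 with the knockout lower, beside 25.7%. Of the 7 genes that fell 5 take part in cutting the receptor, a group of 9 tested. The genes that rose were spread over ligands, ubiquitin ligases, inhibitors and the target Hey2, with Aph1b and Maml2 besides. Over all tested genes 16.8% fell and 15.9% rose.

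Of 9 genes of receptor cleavage tested, 5 fell and 1 rose, beside 16.8% of all tested genes falling and 15.9% rising. Adam10, the protease that makes the first cut in a ligand-bound receptor, gave 222, 267 and 262 CPM for knockout libraries 1 to 3 and 412, 570 and 555 CPM for wild type libraries 1 to 3. It fell by 1.03 on the log2 scale, with an SE of 0.148 and an edgeR adjusted p of 0.00156. Adam17, a related protease, gave 92.0, 101 and 104 CPM in knockout libraries and 150, 175 and 176 CPM in wild type libraries, and fell by 0.75 (SE 0.101; adjusted p = 0.00119). Neither overlapped between the groups, and both kept their calls with any library left out.

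The gamma-secretase complex makes the cut that frees the intracellular part. Its small subunit Psenen fell by 0.77 on the log2 scale, with an SE of 0.215 and an edgeR adjusted p of 0.0266, from 9.75, 16.9 and 15.5 CPM in wild type libraries to 8.67, 8.18 and 7.67 CPM in the knockout. That call was lost in edgeR without knockout library 2 (adjusted p = 0.0669), knockout library 3 (0.0645), wild type library 2 (0.103) or wild type library 3 (0.0861), and 9.33% of its exon bases lie in genes of the opposite strand. Ncstn, the subunit that holds the substrate, is named outside the rule for named genes, after its value was seen. It fell by 0.47 (edgeR adjusted p = 0.00362) on the log2 scale and kept its call with any library left out, but like Psenen it was not called under scaling by library totals. Aph1b, likewise named after its values were seen, rose by 0.54 (adjusted p = 0.0157), and lost its call without wild type library 2 (0.0854) or wild type library 3 (0.0601).

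Among the other receptors and ligands, Dll3 rose and Dner fell. Dner, a transmembrane protein known mainly from neurons and described as an unusual Notch ligand, gave 5.29, 5.51 and 9.18 CPM for knockout libraries 1 to 3 and 14.1, 30.8 and 41.1 CPM for wild type libraries 1 to 3. It fell by 2.14 on the log2 scale, with an SE of 0.387 and an edgeR adjusted p of 0.00457, the largest change on the list, with no overlap and with its call kept whichever library was left out. Dll3, a Delta-like protein that does not activate receptors on neighbouring cells, gave 3.79, 2.42 and 2.93 CPM in knockout libraries and 1.26, 1.603 and 1.38 CPM in wild type libraries. Its log2 fold change was 1.13 (SE 0.267; adjusted p = 0.0143), and the call was lost without knockout library 1 (0.0512) or wild type library 3 (0.0609).

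The endothelial genes of the pathway did not pass. Notch4, a receptor of blood vessels, gave 26.8, 39.3 and 37.3 CPM in knockout libraries and 32.6, 23.4 and 17.8 CPM in wild type libraries, a log2 fold change of 0.47 (edgeR adjusted p = 0.139) that passed without wild type library 1 (0.0326). Dll4, the main endothelial ligand, gave 26.8, 24.9 and 21.7 CPM in knockout libraries and 24.8, 19.6 and 14.5 CPM in wild type libraries, with a log2 fold change of 0.32 (adjusted p = 0.225). The groups overlapped for both genes, as they did for the endothelial marker sum given above.

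None of the 4 other genes of receptor glycosylation passed, and whether they differed from Lfng was not tested. Mfng, manic fringe, had a log2 fold change of 0.49 (edgeR adjusted p = 0.0604) and passed without wild type library 1 (0.0181). Rfng, radical fringe, had a log2 fold change of 0.07 (adjusted p = 0.721). The 3 fringe genes thus gave -1.17, 0.49 and 0.07 for Lfng, Mfng and Rfng.

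In the nucleus, Maml2 and Kat2b moved in opposite directions. Maml2, a Mastermind coactivator that binds the receptor and RBPJ, gave 70.2, 109 and 87.8 CPM for knockout libraries 1 to 3 and 34.3, 32.8 and 30.7 CPM for wild type libraries 1 to 3. It rose without overlap by a log2 fold change of 1.44 (SE 0.156; edgeR adjusted p = 0.000416). Kat2b, a histone acetyltransferase, gave 19.1, 16.4 and 22.8 CPM in knockout libraries and 37.9, 54.8 and 53.3 CPM in wild type libraries, and fell by 1.33 (SE 0.175; adjusted p = 0.00107). Both kept their calls with any library left out, and the other 6 nuclear genes tested did not pass.

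Genes that restrain or turn over Notch receptors made up 4 of the 9 that rose, with none of the 9 tested in that group falling. Over all tested genes 15.9% rose and 16.8% fell. Numbl, related to the Notch inhibitor Numb, gave 31.4, 32.3 and 33.9 CPM in knockout libraries and 19.5, 17.7 and 19.4 CPM in wild type libraries. Its log2 fold change was 0.79 (SE 0.102; edgeR adjusted p = 0.00101), and it was called with any library left out. The Deltex genes Dtx1 and Dtx4, whose products act on receptor trafficking, had log2 fold changes of 0.67 (adjusted p = 0.0199) and 0.56 (0.0167). Dtx1 lost its call without knockout library 1 (0.0563), wild type library 2 (0.0845) or wild type library 3 (0.0817), and Dtx4 without wild type library 2 (0.0772) or wild type library 3 (0.0706). Numb, named after its value was seen, rose by 0.37 (adjusted p = 0.0494) and lost that call in 5 of the 6 fits with a library left out, all but the fit without wild type library 1. Neurl1a, a ubiquitin ligase that acts on ligands, rose by 0.99 (SE 0.237; adjusted p = 0.0151), and lost its call without wild type library 2 (0.0635) or wild type library 3 (0.0589).

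Of the other target and feedback genes, Hey2 passed and 4 did not. Hey2 gave 6.59, 7.68 and 6.96 CPM for knockout libraries 1 to 3 and 4.78, 3.15 and 3.68 CPM for wild type libraries 1 to 3, above all wild type libraries in all knockout libraries. Its log2 fold change was 0.86 (SE 0.208; edgeR adjusted p = 0.0156), and lost its call without knockout library 2 (0.0519), wild type library 2 (0.0714) or wild type library 3 (0.0625). The HEY genes therefore differed in sign, -0.66 for Hey1 against 0.86 for Hey2, with Heyl at 0.51 (adjusted p = 0.222) and called without wild type library 1 (0.0116). Hes5, a target prominent in the neural retina, had a log2 fold change of 0.35 (adjusted p = 0.210). Nrarp, a feedback inhibitor, had a log2 fold change of 0.34 (adjusted p = 0.133) and was called without knockout library 3 (0.0279). The exons of Nrarp and Hes5 share 79.4% and 31.8% of their bases with opposite-strand transcripts, so their reads are uncertain.

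**Figure D5:**
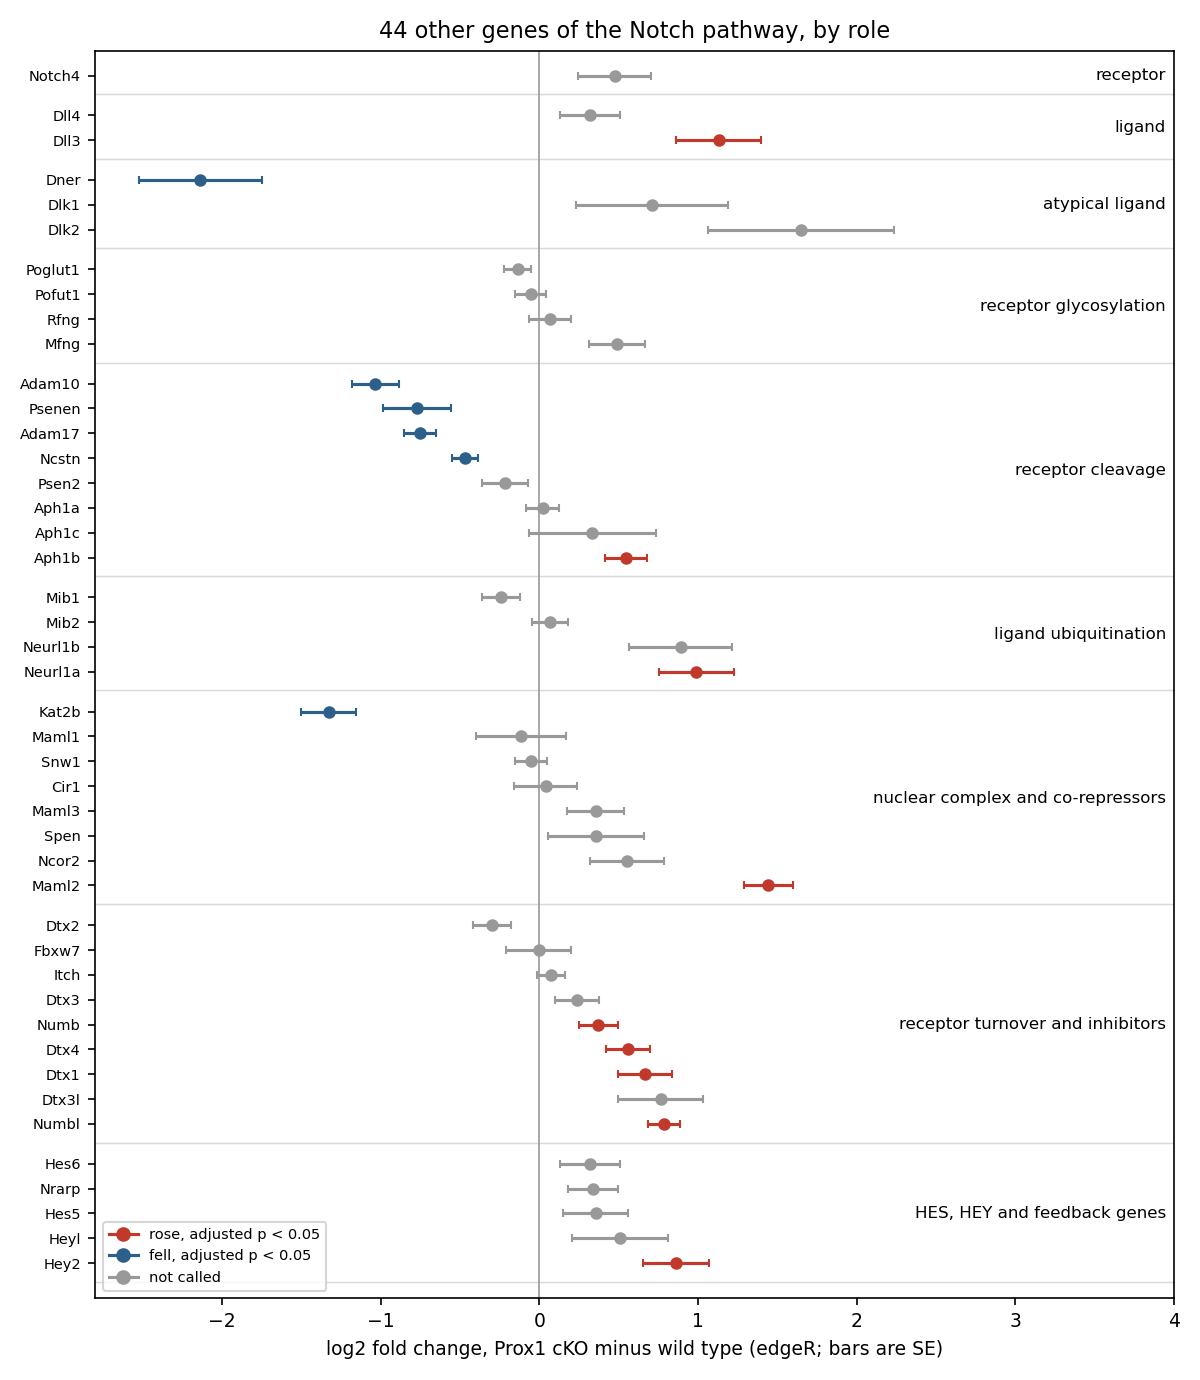
Log2 fold change, Prox1 cKO minus wild type, with SE (bars) in edgeR of 44 of the 45 other tested genes of the Notch pathway, grouped by role, red where the gene rose, blue where it fell and grey where it did not pass an adjusted p of 0.05. Of the 8 receptor cleavage genes plotted 4 fell, beside 16.8% of all tested genes, and the other falling genes plotted are Dner and Kat2b.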

How the data were processed

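RNA was measured in 6 lens libraries by poly(A) sequencing with a kit that does not mark strand and single-end reads of 51 bases, per the labels. Per the file headers, the deposited tables hold for each of 41128 features the raw count, its CPM and its RPKM. The CPM made by the authors equals the count over the library total within 1e-06, and the deposited RPKM equals that CPM over a length per feature. The build was GRCm38 and edgeR was used, per the submitters' processing notes, while aligner, counter and annotation were not given in the sources used here. For 26 features the count and the CPM disagreed, so 41102 were kept, and those left out held 0.0424% to 0.0636% of the counts.

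The counts were fitted in R 4.3.3 with edgeR 4.0.16, using filterByExpr (minimum count 10), TMM scaling, the quasi-likelihood test with group as the only term, and Benjamini-Hochberg adjustment over all features tested (threshold 0.05). The SE is the absolute log2 fold change over the root of the F statistic. Log2 CPM used a prior count of 2. Within-library ratios of raw counts were compared by the exact permutation test. Alternatives were DESeq2 1.42.0, limma-voom (limma 3.58.1), other scalings and filters, the library number as a replicate block, each library left out, RPKM in place of counts for the ratios, and, added after seeing the data, removal of a trend on length and levels per annotated exon length. The test was tried on simulated counts.

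The 10 genes, the 49 other pathway genes, the marker lists (lens, lens epithelium, neural retina, neurons, endothelium, mural cells, periocular mesenchyme, macrophages, pigment cells) and the rule for named genes were chosen with earlier results of these data known. The rule names all 10 members, the 12 largest called changes among the other pathway genes, Notch4, Dll4, Mfng, Rfng, Hes5, Heyl and Nrarp whatever their result, Prox1, and the 3 genes most like Jag1 and Notch1. Positions and shared exon bases are from GENCODE mouse release 21 (GRCm38), and promoters from RefSeq. The precision rests on 3 libraries a group, and Jag2 and Dll1 had 113 to 183 counts in knockout libraries 2 and 3, the shallowest. Values of 2 genes of these lists are not reported here, though both enter the counts and sums of their lists.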

Additional observations from a re-analysis of the deposited data

How the results depend on the processing

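No Notch member changed direction under any setting. Of 60 values with 1 library left out 47 kept their side of the edgeR threshold, 10 lost the call and 3 gained it, and of 100 values under the other settings 86 kept it, 4 lost it and 10 gained it. All 42 ratios with a library left out kept their sign; ratios from RPKM give the same differences by construction and test nothing. The 3 falling members were called whichever library was left out. The members called ranged from 4 (without wild type library 2 or 3) to 8 when a library was left out, and the rising members from 1 (without wild type library 2 or 3; 2 without knockout library 2) to 5. The other pathway genes called ranged likewise from 8 to 21, those rising from 2 to 14, and all genes called from 2267 (without wild type library 2) and 2475 (without wild type library 3) to 5317. Scaling by library totals gave 7 rising members, 28 other pathway genes called, 24 rising and 4 falling. That scaling is built without the TMM factors; the cause of the other changes was not tested. With a replicate block 6 members (3 rising, 3 falling), 15 other pathway genes (9 rising, 6 falling) and 4176 of all genes were called. In that edgeR fit Notch1 (adjusted p = 0.0899), Jag2 (0.0708), Psenen (0.0523) and Numb (0.0563) lost their calls. Dll1 gained a call (0.0339), as did a rising gene among the other pathway genes, not named here. Deviations of libraries with the same number correlated at -0.03, 0.25 and 0.11, and those of libraries with different numbers at -0.22 to 0.09. The values 0.25 and 0.11 were the highest of all pairs, so the correlations do not settle whether the numbers pair the libraries. The fit reported above did not use the numbers. Depth was least in knockout libraries 2 and 3, and its part in the error of any member was not tested. Removing the length trend gave 7 members, 18 other pathway genes and 5118 of all genes called.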
